A study of Mus musculus with 12 samples.

Results

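This account describes 377 genes of mouse astrocyte-enriched cortical cultures that respond to vasoactive intestinal peptide (VIP), and how their response differs when the transcription factor CREB is inhibited. The members were chosen on the mean of the VIP effects measured with a control virus and with a virus for ACREB, at an adjusted p under 0.05 in edgeR's quasi-likelihood test. They are 377 of 16761 genes tested, 240 of them raised (1.43%) and 137 lowered (0.817%); with no replicate block the same test called 97 and 25, all of them among the 377. Of the raised genes, 79 had a mean rise of 1 or more log2 units and are called strongly raised, and the other 161 are called less raised. The measure of CREB dependence is the interaction, the log2 VIP effect with ACREB minus the log2 VIP effect with control virus, which does not enter the choice of members. A retained percent gives the log2 VIP effect with ACREB as a percent of that with control virus. Members under 80% are called blunted, those from 80% to 125% spared, and those over 125% enhanced. These classes are ranges of an estimate and were not tested as classes.

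There were 4 groups of 3 polyA RNA libraries each, numbered 1 to 3 in the labels. All came from forebrains of C57BL6/J pups at post-natal day 0 to 2, grown in serum and shaken before replating to remove other glia. Each culture carried a lentivirus for 5 days, either pCIG3 (pCMV-IRES-GFP), the control virus, or ACREB. With each virus, cells then received PBS, or VIP at 0.5 µM, for 30 min, and were lysed after 90 min of recovery. Thus every group, controls included, was transduced, and the share of cells that took up the virus is not given in the labels. The ACREB transcript itself was not measured. Nothing in the labels ties the numbers to separate cultures or litters. The p-values then reflect the spread among these libraries alone, and that spread could be technical.

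VIP acts through receptors coupled to the G protein Gs, which raises cyclic AMP and activates protein kinase A. The kinase phosphorylates CREB at cyclic AMP response elements (CREs), and phosphorylated CREB recruits coactivators that switch on early genes such as Nr4a1 to Nr4a3. ACREB is a dominant-negative partner that pairs with CREB through the leucine zipper and keeps it from binding DNA. In astrocytes, cyclic AMP signalling is known for glycogen turnover and for induction of the thyroid hormone deiodinase Dio2.

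Total counts were 16571398 to 20529238 per library. One library, control PBS 2, lay far from the others: it scored 81.2 on the component that held 38.1% of the variance, and ACREB PBS library 2 came next at 34.6. GC content and gene length together explained 40.0% and 16.6% of the variance of their departures from each gene's mean over the libraries. In the other libraries this share was 0.479% to 14.4%. Summed astrocyte markers (17 listed) were 14617 to 19195 CPM (counts scaled to a common library size by TMM, per 1e+06) over the libraries, and the lowest of the 16 tested averaged 10.3 CPM. Microglial markers were also present, at 1630 to 3576 CPM with control virus and 2165 to 4367 CPM with ACREB. Oligodendrocyte lineage markers summed to 1167 to 1878 CPM, ependymal markers to 397 to 590 CPM and neuronal markers to 326 to 520.1 CPM. Most of the ependymal sum was Foxj1, with group means of 323 to 389 CPM. Most of the neuronal sum was Map2, with group means of 264 to 330 CPM. Stmn2 averaged 60.7 to 80.5 CPM, and Rbfox3 and Snap25 0.81 to 1.69 CPM. Fibroblast and mural markers summed to 4828 to 8529 CPM, mostly from Acta2, Tagln and Fn1, each with group means of 1576 CPM or more. Of that list, Col1a1 and Col1a2 averaged 43.1 to 67.9 CPM over the groups, and Dcn, Lum and Rgs5 0.39 to 3.22 CPM. Vtn, Kcnj8, Abcc9 and Des were not tested. Endothelial markers summed to 158 to 354 CPM with control virus and 324 to 493 CPM with ACREB. Only 5 of the 13 listed were tested, Pecam1, Cdh5 and Cldn5 being among those too low. Most of the sum was Slco1a4 alone, with group means of at least 215 CPM with control virus and 345 CPM with ACREB. Flt1 also averaged more with ACREB (13.0 CPM with PBS, against 8.37 CPM). Group means of Kdr (23.3 to 27.7 CPM) and Vwf (6.73 to 7.25 CPM) overlapped between the viruses, and Egfl7 averaged at most 0.77 CPM. The part of these cells in the results was not tested, and in bulk RNA fewer cells of a type and less RNA per cell cannot be told apart. Creb1, the gene for CREB, is no member: it averaged more with ACREB in both states, by 0.91 with PBS and 0.79 with VIP on the log2 scale, without passing edgeR's test (adjusted p = 0.21 and 0.23), and counts per gene do not separate a transgene from it. The VIP receptor gene Vipr2 averaged 1.41 to 2.12 CPM over the groups and the related receptor gene Adcyap1r1 78.8 to 95.9 CPM, and neither passed for VIP. Vipr1, a further VIP receptor gene of the same list, was not among the genes tested.

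The raised genes kept their direction with ACREB but responded less. Of the 79 strongly raised genes, 66 were blunted, 12 spared and 1 enhanced. The median VIP effect was 1.81 on the log2 scale with control virus and 1.06 with ACREB, and the median retained percent was 60.7%, with quartiles of 51.6% and 74.7%. On the linear scale, the median rise in CPM with ACREB was 43.6% of that with control virus. The interaction was below 0 in 74 of the 79, against 48.7% of all genes tested, with a median of -0.71 against 0.01 over all genes. It was below 0 within each of the 3 replicate numbers in 66 of the 79, against 14.0% of all genes. Within numbers 1, 2 and 3, the median retained percent was 59.4%, 52.5% and 58.9%.

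No single gene passed for the interaction. The smallest adjusted p was 0.935 by edgeR's quasi-likelihood test with the Benjamini-Hochberg adjustment over 16761 genes, and DESeq2 likewise called 0 genes (smallest 0.222). At an unadjusted p under 0.05, edgeR's test gave 245 genes below 0 (1.46%) and 216 above 0 (1.29%). The strongly raised genes included 34 of the former (16 with no replicate block, 22 without control VIP library 1) and 1 of the latter. Of the 20 genes with the smallest p, 17 were members, beside 377 members among all 16761 genes tested. The tests for the mean effect and the interaction use the same estimate of a gene's spread. A gene with a small estimate can thus pass in both, and these counts by p are not separate evidence. The counts below are therefore descriptions of members as groups, and the genes described most fully are given with their intervals.

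**Figure D1:**
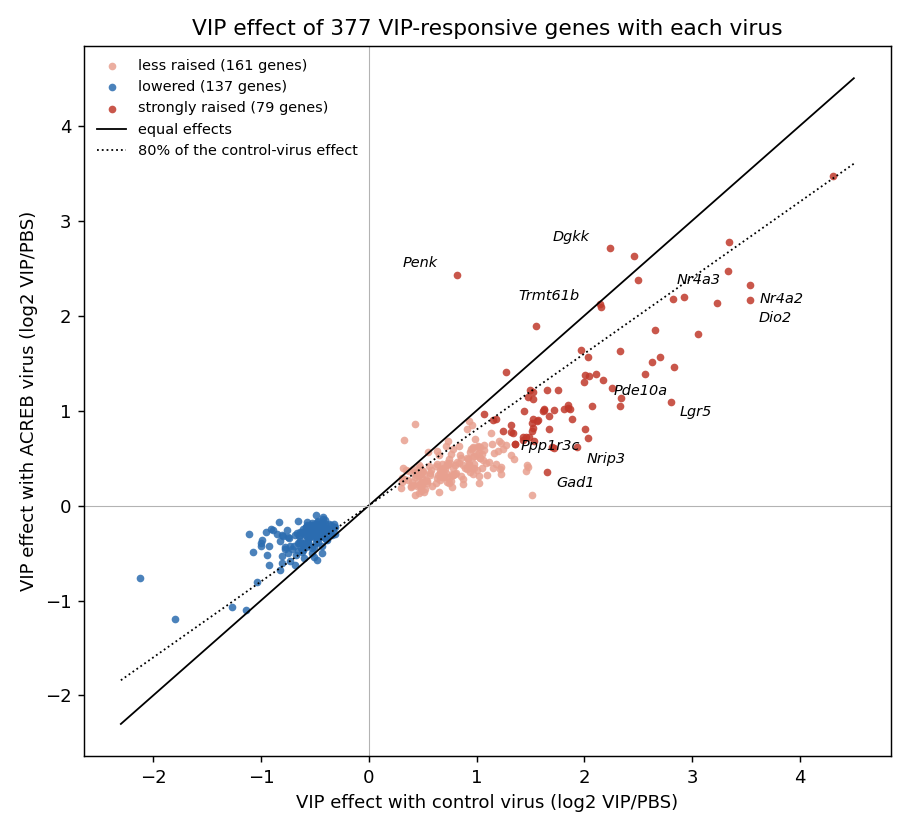
Log2 VIP effect with control virus (horizontal) against that with ACREB virus (vertical) for the 377 members, 1 point per gene, coloured by set. Most raised genes lie below the line of equal effects and most lowered genes above it, so that both move toward 0 with ACREB, with a median retained percent of 60.7% for the 79 strongly raised and 58.6% for the 137 lowered genes.

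The less raised genes showed the same pattern, with 141 blunted, 18 spared and 2 enhanced. Their median effect was 0.75 with control virus and 0.38 with ACREB on the log2 scale, a median of 52.9% retained. The interaction was below 0 in 156 of the 161, within every number in 115 (14.0% of all genes tested), and at an unadjusted p under 0.05 in 58 by edgeR's test (1.46% of all genes). With PBS, 69 of the 161 were lower with ACREB than with control virus (47.8% of all genes), with a median difference of 0.04. With VIP, 148 were lower (50.2% of all genes), with a median of -0.35.

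For the strongly raised genes as a set, the difference lay mainly in the level reached with VIP. Some single raised genes described below, such as Nrip3 and Crem, averaged higher with ACREB before VIP. With PBS, the strongly raised genes had a median difference between the viruses of -0.05 on the log2 scale, and 43 of 79 were lower with ACREB (47.8% of all genes tested). With VIP, 77 of 79 were lower with ACREB (50.2% of all genes), with a median difference of -0.78, and 11 passed edgeR's test as lower (0.215% of all genes) and none as higher (0.149%). With PBS, 1 passed as lower (0.137%) and none as higher (0.0835%). In 47 of the 79, every ACREB VIP library lay below every control VIP library, against 7.06% of all genes, while the 2 viruses did not overlap with PBS in 6 genes that were lower with ACREB (4.44%) and 2 that were higher (4.34%). None of the 79 had ACREB VIP above control VIP in this sense (6.97% of all genes). These differences share their VIP libraries with the interaction and are not separate evidence. The rise itself could still be seen with ACREB: in 60 of the 79, every ACREB VIP library lay above every ACREB PBS library (3.45% of all genes), and in 75 this held with control virus (4.53%). In edgeR's test 67 of the 79 passed for VIP with control virus (1.10% of all genes as higher) and 13 with ACREB (0.0776%); the choice of members used these effects, so the counts are descriptions.

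**Figure D2:**
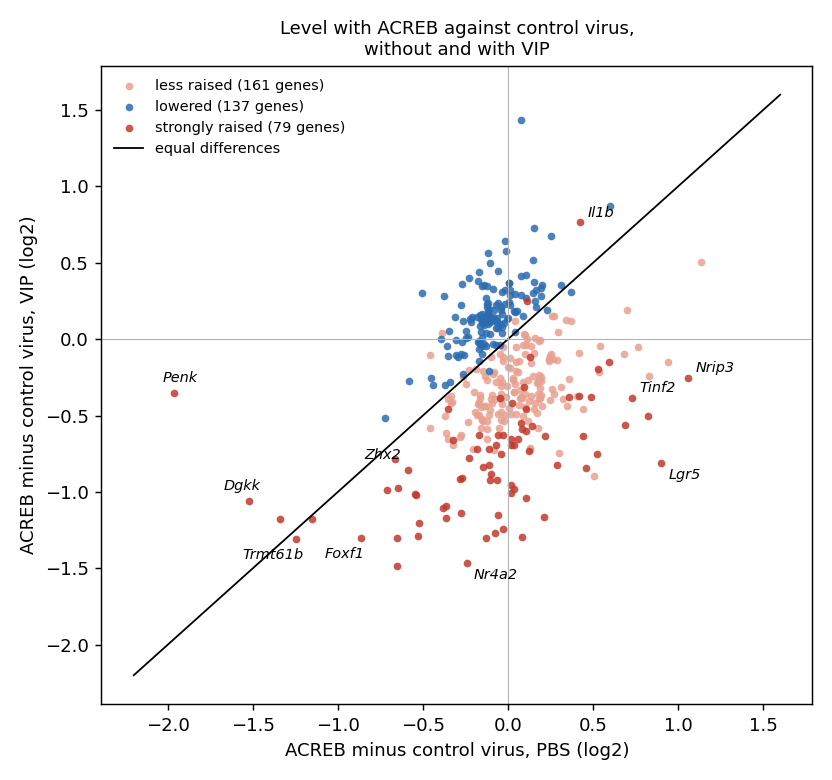
Log2 difference between ACREB and control virus with PBS (horizontal) and with VIP (vertical), 1 point per member, coloured by set. The strongly raised genes spread around 0 along the horizontal axis and lie almost all below 0 on the vertical axis (77 of 79), and 109 of the 137 lowered genes lie above 0 on it.

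The CRE letters were in a larger share of the promoters of raised members than of all genes tested. RefSeq promoter sequences of GRCm38.p6, from 250 bases before to 50 after a start, were matched by symbol for 59 of 79 strongly raised, 127 of 161 less raised and 105 of 137 lowered genes, and for 11835 of all genes tested, a gene with several listed starts being counted once if any of them held the letters. The full letters TGACGTCA, which read the same on both strands, were in 9 of 59 strongly raised (15.3%), 13 of 127 less raised (10.2%) and 2 of 105 lowered genes (1.9%), against 3.47% of all tested. The shorter core TGACG, or CGTCA on the other strand, which the full letters also contain, was in 54.2%, 45.7% and 25.7%, against 33.6% of all. Among strongly raised genes, the full letters were in 7 of 50 blunted and 2 of 9 spared genes. The median retained percent was 61.2% in the 9 genes with the full letters and 61.6% in the 27 matched genes with neither, while the median interaction was -0.83 and -0.64 on the log2 scale; these differences were not tested. A match is a description of the window and not a bound site.

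The promoters shown are those of the 7 strongly raised, blunted genes with the full letters, and that of Nr4a2, which holds the core alone, at 4 places. Each runs 5′ to 3′ on the gene's strand over the 200 bases before the RefSeq start in GRCm38.p6, with TGACG and CGTCA in capitals; Maff has another listed start, not shown. They lie at chr2:57124004-57124203 (minus strand) for Nr4a2, chr12:90739039-90739238 (minus) for Dio2, chr1:63273069-63273268 (plus) for Zdbf2, chr14:55681818-55682017 (minus) for Tinf2, chr15:79347320-79347519 (plus) for Maff, chr5:69341710-69341909 (minus) for Kctd8, chr8:80058009-80058208 (minus) for Hhip and chr13:99900684-99900883 (minus) for Cartpt.
Nr4a2: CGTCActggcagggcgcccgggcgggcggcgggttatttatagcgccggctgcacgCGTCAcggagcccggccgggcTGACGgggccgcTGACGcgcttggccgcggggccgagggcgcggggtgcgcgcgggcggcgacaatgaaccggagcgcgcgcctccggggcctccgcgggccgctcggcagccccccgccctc
Dio2: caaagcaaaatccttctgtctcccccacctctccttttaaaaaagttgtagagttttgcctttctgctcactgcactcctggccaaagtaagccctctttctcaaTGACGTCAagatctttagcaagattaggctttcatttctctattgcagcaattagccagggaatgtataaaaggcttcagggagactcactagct
Zdbf2: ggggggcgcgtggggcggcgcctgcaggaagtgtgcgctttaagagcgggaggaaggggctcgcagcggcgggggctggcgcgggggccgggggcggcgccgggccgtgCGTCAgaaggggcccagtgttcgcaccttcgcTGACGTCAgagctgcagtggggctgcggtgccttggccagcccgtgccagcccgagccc
Tinf2: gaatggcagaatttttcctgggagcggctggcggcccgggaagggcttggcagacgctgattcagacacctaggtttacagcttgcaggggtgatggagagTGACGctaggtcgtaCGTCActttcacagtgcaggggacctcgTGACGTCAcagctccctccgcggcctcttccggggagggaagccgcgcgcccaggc
Maff: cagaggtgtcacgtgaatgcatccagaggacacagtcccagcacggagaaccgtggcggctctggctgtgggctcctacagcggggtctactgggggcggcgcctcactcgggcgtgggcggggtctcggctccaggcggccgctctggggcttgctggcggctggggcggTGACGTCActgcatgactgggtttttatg
Kctd8: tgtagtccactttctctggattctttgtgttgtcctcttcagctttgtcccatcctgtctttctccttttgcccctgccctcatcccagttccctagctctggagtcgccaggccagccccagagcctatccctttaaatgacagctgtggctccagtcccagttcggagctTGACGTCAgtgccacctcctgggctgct
Hhip: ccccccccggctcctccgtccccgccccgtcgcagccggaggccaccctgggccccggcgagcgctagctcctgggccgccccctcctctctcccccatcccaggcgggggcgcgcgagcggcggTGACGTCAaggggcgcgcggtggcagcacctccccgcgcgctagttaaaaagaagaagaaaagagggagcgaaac
Cartpt: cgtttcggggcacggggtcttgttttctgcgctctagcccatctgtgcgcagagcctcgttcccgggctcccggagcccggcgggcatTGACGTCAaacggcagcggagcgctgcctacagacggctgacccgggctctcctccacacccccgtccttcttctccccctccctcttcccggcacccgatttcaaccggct
The full letters begin 95 bases before the start in Dio2, 59 in Zdbf2, 56 in Tinf2, 29 in Maff, 28 in Kctd8, 75 in Hhip and 112 in Cartpt. The genes beside these sequences kept 65.5%, 61.2%, 59.1%, 57.5%, 57.2%, 54.2%, 65.4% and 77.0% of their VIP effect, in the order printed. The 2 spared genes with the full letters were Pcsk1, which kept 107% at no more than 2.10 CPM in any library, and the predicted gene Gm26744, which kept 80.6%.

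Immediate-early transcription factors are known early targets of cyclic AMP signalling. Nr4a2, an orphan nuclear receptor (chromosome 2, 57106830 to 57124003, GRCm38), stood at 4.10, 4.25 and 6.69 CPM with PBS and at 58.2, 62.0 and 54.1 CPM with VIP in control virus libraries 1 to 3. In the ACREB libraries it was at 5.02, 3.33 and 4.33 CPM with PBS and 22.1, 20.995 and 20.2 CPM with VIP. The PBS libraries of the 2 viruses overlapped and the VIP libraries were far apart, with little spread inside each group. VIP thus raised it 11.6-fold in control virus and 4.99-fold under ACREB, an interaction of -1.22 on the log2 scale (SE 0.26, 95% interval -1.80 to -0.64, adjusted p = 0.935 in edgeR's test), or 65.5% retained. The level with VIP was itself lower with ACREB by 1.46 on the log2 scale (adjusted p = 0.0067 in edgeR's test).

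Nr4a3, of the same family, measured 49.5, 34.8 and 194 CPM in the control PBS libraries and 519, 470.2 and 652 CPM with VIP. The ACREB libraries held 43.0, 34.6 and 119.7 CPM, and 269, 197 and 306 CPM with VIP. Number 3 was high with PBS in both viruses. Its interval, -1.74 to 0.30, includes 0, at 75.2% retained. Nr4a1 retained less, 48.8%: it reached 65.0, 147 and 131 CPM with VIP and control virus and 32.3, 50.7 and 52.1 CPM with ACREB, from 17.9, 49.2 and 61.5 CPM and 17.9, 26.4 and 39.9 CPM with PBS. Its level with VIP was lower with ACREB by 1.29 on the log2 scale (adjusted p = 0.025 in edgeR's test). The interaction was below 0 in all 3 numbers for each of the 3 Nr4a genes.

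Of 28 immediate-early factors tested, 6 were raised members (1.43% of all genes tested), all 6 blunted, with a median of 55.2% retained. This was near the share of all raised members, of which 207 of 240 were blunted, with a median of 55.8%. Maff, a small Maf factor, rose from 61.5, 87.3 and 54.1 CPM to 211, 191 and 183 CPM with control virus. With ACREB it went from 70.0, 85.8 and 49.9 CPM to 134, 130.3 and 110.4 CPM, so that the PBS libraries overlapped and the VIP libraries did not. Klf4, a zinc-finger factor, retained 53.3% and Fosb, a partner of Jun in AP-1, 25.2%. Fosb differed in where the change lay: it measured 4.16, 5.81 and 1.91 CPM with PBS and control virus but 7.91, 8.77 and 5.50 CPM with PBS and ACREB. With VIP the viruses overlapped, at 9.82, 11.7 and 9.71 CPM and 9.10, 10.4 and 8.69 CPM, as they did with PBS. The other 3 members of the list, Srf, Egr1 and Npas4, were lowered by VIP, and retained 76.1%, 47.6% and 75.3%. Fos itself was not a member, with a mean VIP effect of 0.11 on the log2 scale (adjusted p = 0.77 in edgeR's test).

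**Figure D3:**
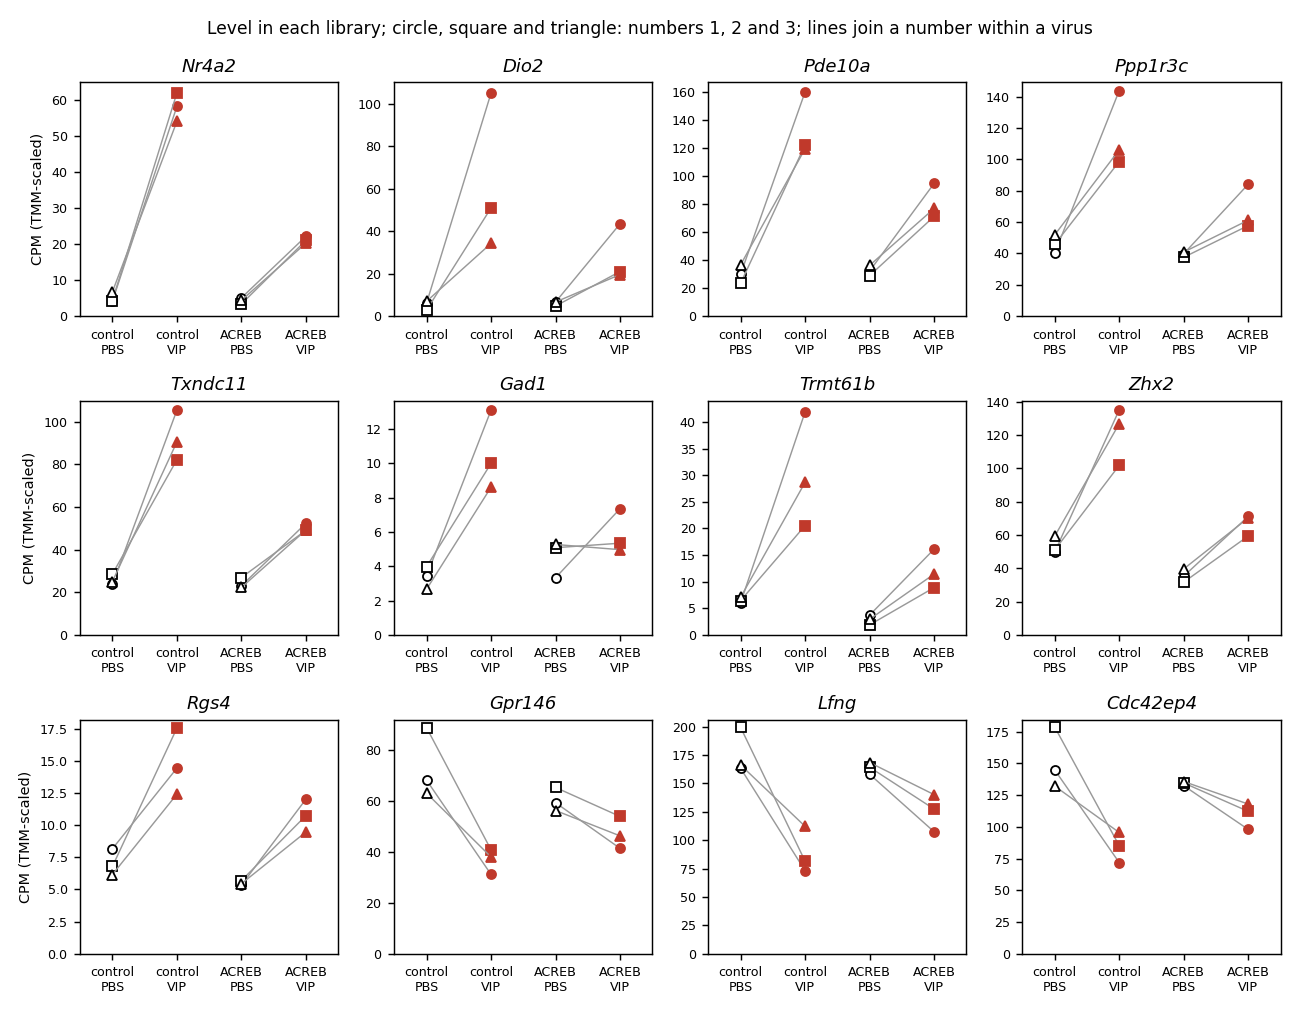
CPM in each library for 12 members, from 0, with PBS as open and VIP as filled symbols, and lines joining the libraries of 1 number within a virus. In Nr4a2, Pde10a, Ppp1r3c and Txndc11 the PBS levels overlap and the ACREB VIP libraries end below all control VIP libraries, in Dio2 they end lower only within each number; in Trmt61b and Zhx2 both states are lower with ACREB; and Gpr146, Lfng and Cdc42ep4 fall less with ACREB.

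VIP also raised genes that limit cyclic AMP signalling, 7 of 31 such genes tested (1.43% of all genes tested). All 7 were blunted (median 54.3% retained), near the share of all raised members (207 of 240, median 55.8%). Of the 7, Pde10a, Pde4d, Pde4b and Pde3a code for phosphodiesterases, enzymes that degrade cyclic nucleotides. Sik2 and Sik3 are kinase genes whose products hold CREB's coactivators out of the nucleus, and the short forms of Crem repress CREs. Pde10a (chromosome 17, 8525372 to 8986648) measured 29.8, 23.3 and 36.6 CPM with PBS and 160.3, 122 and 119.6 CPM with VIP in the control virus libraries. The ACREB libraries stood at 32.1, 28.9 and 36.2 CPM and then 94.8, 71.2 and 76.9 CPM. Every ACREB VIP library was thus below every control VIP library while PBS levels overlapped. The interaction was -0.85 (SE 0.20, 95% interval -1.29 to -0.42; unadjusted p = 0.00119, adjusted p = 0.935, edgeR). Pde4d kept 58.5% of its effect, Sik2 54.3%, Sik3 69.4%, Pde4b 48.8% and Pde3a 49.4%.

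Crem kept 33.2%. It measured 27.5, 16.5 and 28.7 CPM with PBS and 75.4, 49.5 and 45.6 CPM with VIP in control virus, and 39.4, 40.0 and 41.7 CPM and 64.7, 48.8 and 49.5 CPM with ACREB. Its VIP libraries overlapped between the viruses, and all 3 ACREB PBS libraries were above the control PBS libraries, so that the smaller fold goes with a higher start. Counts per gene do not separate the forms of Crem. Sik1, a close relative of Sik2, was just outside the members (mean effect 0.76, adjusted p = 0.067 in edgeR's test). Of 25 genes for receptors, G proteins, adenylyl cyclases and protein kinase A tested, none was a member by edgeR's test. Among all genes tested, 1.43% were raised and 0.817% lowered members.

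Among 42 known cyclic AMP and CREB targets tested, 19 were raised members (1.43% of all genes tested). Of these, 17 were blunted, 1 spared (Pcsk1) and 1 enhanced (Penk), with a median of 58.5% retained. That is near the share of all raised members (207 of 240 blunted, median 55.8%). The 2 lowered members of the list were Egr1 (47.6%) and Gadd45b (91.5%). Over all 42 the interaction was below 0 in 31, against 48.7% of all genes tested. In the other lists it was below 0 in 11 of the 28 immediate-early factors and 20 of the 31 genes that limit cyclic AMP signalling. For the 18 neuropeptide genes described below, it was below 0 in 8. Dio2, whose enzyme activates thyroid hormone (chromosome 12, 90724552 to 90738438), measured 5.92, 2.702 and 6.85 CPM with PBS and 105, 50.9 and 34.2 CPM with VIP in control virus. Under ACREB the values were 6.54, 4.66 and 6.56 CPM and 43.5, 20.9 and 19.5 CPM. The VIP libraries of the viruses overlapped, with number 1 the highest in both, but within each number ACREB was lower. The rise was 11.6-fold against 4.48-fold, 61.2% retained (interval of the interaction -2.36 to -0.38, adjusted p = 0.935 in edgeR's test).

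Ppp1r3c, a subunit that brings protein phosphatase 1 to glycogen, went from 40.0, 45.6 and 51.7 CPM to 144, 98.6 and 106 CPM with control virus. With ACREB it went from 39.7, 37.4 and 40.7 CPM to 84.1, 57.7 and 61.1 CPM, below every control VIP library. It kept 58.3% (interaction -0.55, SE 0.22). It was 1 of 2 raised members among 30 glycogen genes tested (1.43% of all genes tested). The other was Ppp1r3g, at no more than 1.33 CPM in any library. Ppargc1a, the mitochondrial coactivator, kept 31.2%; control PBS library 2 was its lowest library, with PBS at 49.0, 20.6 and 40.9 CPM and VIP at 93.3, 82.8 and 70.6 CPM, against 47.3, 30.1 and 41.0 CPM and 64.1, 44.4 and 45.1 CPM with ACREB. Ptgs2, a prostaglandin synthase, kept 40.4%, and Vgf, a secreted granin-like protein, 54.5%.

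Of 18 genes for neuropeptides, their processing and their receptors tested, 8 were raised members (1.43% of all genes tested). These were 6 blunted, 1 spared and 1 enhanced, beside 207 of 240 blunted over all raised members. Chgb, a granin of secretory vesicles, measured 39.7, 47.4 and 33.8 CPM with PBS and 70.7, 84.1 and 47.2 CPM with VIP in control virus, against 50.2, 55.9 and 37.4 CPM and 63.8, 77.9 and 42.9 CPM with ACREB. The viruses overlapped in both states, and it kept 48.0% (interaction -0.37, SE 0.14, 95% interval -0.68 to -0.06, adjusted p = 0.935 in edgeR's test). Tacr1, the substance P receptor, went from 1.25, 1.78 and 5.84 CPM to 32.1, 19.7 and 30.6 CPM with control virus, and from 1.47, 2.12 and 3.395 CPM to 14.0, 8.56 and 15.6 CPM with ACREB. It thus rose in every number with each virus, 10.1-fold and 5.54-fold, and its interval of -1.95 to 0.22 includes 0. Trh, the precursor of thyrotropin-releasing hormone, reached 5.27, 3.20 and 3.27 CPM with control virus and 1.63, 1.64 and 2.12 CPM with ACREB. Its PBS libraries held under 1 CPM each, and without ACREB PBS library 3 the sign of its interaction turned (0.36). Cartpt kept 77.0% and Crh 55.0%, both with intervals that include 0.

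Penk, the enkephalin precursor, was the 1 enhanced gene of the strongly raised set and stood near the lower end of detection. It measured 0.572, 1.09 and 0.849 CPM with PBS and 2.05, 1.50 and 0.950 CPM with VIP in control virus. The ACREB libraries held 0.327, 0.181 and 0.117 CPM and 1.12, 0.982 and 1.34 CPM. The VIP libraries of the viruses overlapped, and the ACREB PBS libraries were all below the control PBS libraries, so the larger fold goes with a lower start. The interaction was 1.61 (SE 0.67, 95% interval 0.15 to 3.08; adjusted p = 0.935, edgeR). The 2 enhanced genes of the less raised set, Dbx2 and Vash2, had intervals of -0.07 to 0.78 and -0.11 to 0.96 that include 0.

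**Figure D4:**
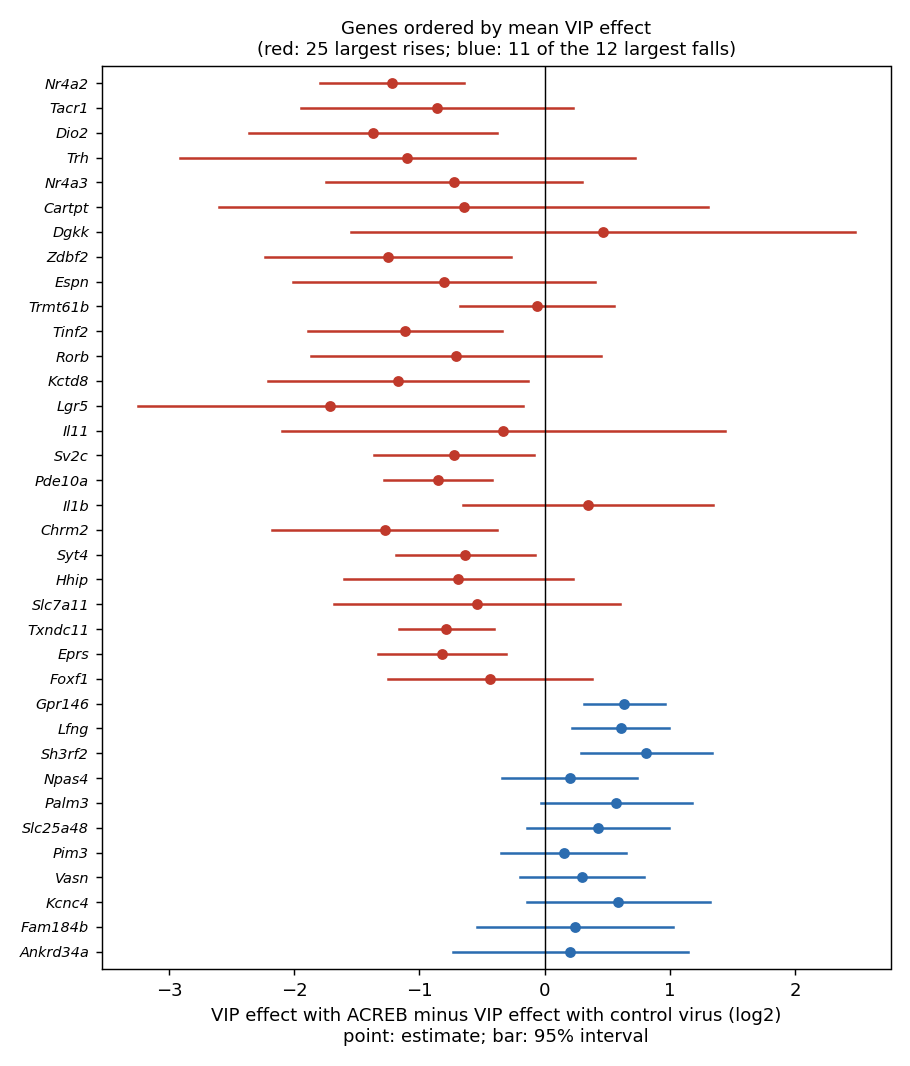
Interaction on the log2 scale with its 95% interval for the 25 largest mean rises (red) and 11 of the 12 largest mean falls (blue) with at least 2 CPM in their highest group. Estimates lie below 0 in 23 of the 25 rises, Dgkk and Il1b being the exceptions, and above 0 in each of the 11 falls shown.

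The least retained of the strongly raised genes with at least 2 CPM were, leaving out the predicted gene Gm6225, Gad1, Nrip3, Esm1, Pls1, Lgr5 and Ptgs2. Gad1, which makes GABA from glutamate, measured 3.43, 3.97 and 2.65 CPM with PBS and 13.1, 9.99 and 8.61 CPM with VIP in control virus. Under ACREB it was at 3.33, 5.08 and 5.27 CPM and 7.36, 5.34 and 4.97 CPM. Only number 1 rose by more than 1 CPM with ACREB, and the PBS and VIP libraries overlapped. Gad1 kept 21.2% (interaction -1.30, 95% interval -2.04 to -0.57, adjusted p = 0.935 in edgeR's test). It was picked for its low retained percent, so this interval is not separate evidence. A gene on the opposite strand, Gad1os, overlaps it, and since the strand setting of the counting is not given in the sources used here the 2 cannot be told apart; 34 of the 79 strongly raised genes have such a neighbour, and the 45 without one had a median of 59.9% retained.

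Pls1, an actin-bundling fimbrin, kept 35.3%, with VIP levels of 29.2, 22.6 and 21.8 CPM in control virus and 18.8, 10.5 and 13.1 CPM with ACREB. Nrip3 kept 32.1% and Esm1, an endothelial proteoglycan, 35.0%. Nrip3, Esm1 and Lgr5, a receptor of the Wnt pathway, all started higher with ACREB, by 1.06, 0.82 and 0.90 on the log2 scale with PBS, and ended 0.25, 0.50 and 0.81 lower with VIP, none of these passing edgeR's test. Zdbf2 (59.1% retained) and Tinf2, which codes for a telomere-binding protein (57.5%), had the same form. Tinf2 measured 19.1, 30.1 and 27.2 CPM with PBS and control virus and 35.1, 47.6 and 44.3 CPM with ACREB, and it overlaps Gmpr2 on the opposite strand.

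Txndc11, a thioredoxin-domain protein of the endoplasmic reticulum (chromosome 16, 11074911 to 11134650), showed little spread within groups. It measured 23.7, 28.6 and 24.997 CPM with PBS and 105, 82.2 and 90.6 CPM with VIP in control virus, and 23.0, 26.9 and 22.2 CPM and 52.4, 49.1 and 49.2 CPM with ACREB. It passed for VIP with both viruses (adjusted p = 6.03e-05 and 0.00969, edgeR) and kept 57.5%. Its interaction was -0.79 (SE 0.17, 95% interval -1.16 to -0.41, adjusted p = 0.935 in edgeR's test). Eprs, a tRNA synthetase gene, kept 55.6%, reaching 717, 481 and 460.3 CPM with VIP in control virus and 387, 222 and 277 CPM with ACREB. Outside the naming rule, and chosen after their values were seen, the less raised genes Adamts9, a metalloprotease, and Fem1b, a substrate receptor of a ubiquitin ligase, are in the 5 smallest interaction p (0.000524 and 0.00108, unadjusted, edgeR). Adamts9 kept 27.1% and Fem1b 36.8%, and control PBS library 2 was the lowest of their libraries, at 25.3 and 88.0 CPM.

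Other genes of the 11 whose level with VIP passed as lower with ACREB were Rfx4, Rnf217, Syt4, Foxf1, Nap1l5 and Eprs. The rule for naming genes did not pick Rfx4, Rnf217 and Nap1l5, which are named because of these values. Rfx4, a winged-helix factor known from brain development, measured 89.9, 66.5 and 117 CPM with PBS and 262, 176 and 244 CPM with VIP in control virus, against 91.1, 71.0 and 96.7 CPM and 169, 108 and 168 CPM with ACREB. Its PBS levels overlapped and its VIP levels did not, with 57.3% retained. Rnf217, a ubiquitin ligase gene, kept 59.9%, Syt4, a synaptotagmin of secretory vesicles, 68.4%, Nap1l5 50.3% and Foxf1, a forkhead factor, 73.6%. Foxf1 held 4.81, 6.30 and 10.4 CPM with VIP in control virus and 2.30, 2.07 and 4.35 CPM with ACREB, and was lower with ACREB by 0.86 on the log2 scale with PBS as well. Among the less raised genes, Hmgb3, a chromatin protein gene, and Usp2, a deubiquitinase gene, passed the same test (adjusted p = 0.045 and 0.031, edgeR) and kept 45.5% and 51.4%.

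Chrm2, Hhip, Sv2c, Slc7a11 and Rorb were among the 25 largest mean rises with at least 2 CPM, and all 5 were blunted. Chrm2, a muscarinic acetylcholine receptor, went from 2.03, 0.805 and 4.40 CPM to 13.4, 8.54 and 12.1 CPM with control virus, and from 3.38, 2.24 and 4.39 CPM to 9.04, 4.20 and 7.55 CPM with ACREB. It kept 45.1%, with all ACREB VIP libraries but that of number 1 below all control VIP libraries. Hhip, which binds Hedgehog ligands, kept 65.4%, Sv2c, a vesicle glycoprotein, 65.7%, Slc7a11, the cystine-glutamate exchanger, 69.2%, and Rorb, a nuclear receptor of the clock list, 69.6%. Rorb measured 23.8, 8.45 and 46.7 CPM with PBS and 156, 107 and 88.6 CPM with VIP in control virus, against 27.9, 15.3 and 32.3 CPM and 107, 54.6 and 66.4 CPM with ACREB. The groups overlapped, and in number 3 the VIP effect was 0.10 larger with ACREB than with control virus on the log2(CPM + 2) scale. Fgf2, a growth factor gene of the less raised set, kept 54.0%.

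Spared genes were fewer and were of different kinds. Rgs4, which shortens signalling by G proteins, measured 8.16, 6.78 and 6.16 CPM with PBS and 14.4, 17.5 and 12.4 CPM with VIP in control virus. With ACREB it measured 5.35, 5.69 and 5.44 CPM and 12.02, 10.7 and 9.47 CPM. Every ACREB library was below every control library of the same treatment, while the folds, 2.10 and 1.95, were close, at 90.0% retained. The interaction was -0.11 with a 95% interval of -0.55 to 0.33. Rgs4 also passed for VIP with ACREB (adjusted p = 0.048, edgeR), but without all number 2 libraries its interaction was 0.07, on the other side of 0.

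Trmt61b kept 97.0% of its fold but was lower with ACREB throughout. It measured 6.03, 6.44 and 7.06 CPM with PBS and 41.9, 20.5 and 28.7 CPM with VIP in control virus, against 3.71, 1.88 and 2.93 CPM and 16.1, 8.89 and 11.4 CPM with ACREB. The viruses did not overlap in either state. The difference between viruses was -1.24 with PBS and -1.31 with VIP on the log2 scale (adjusted p = 0.053 and 0.019, edgeR), and the interaction -0.06 (95% interval -0.68 to 0.55), 0.23 without control PBS library 1. The locus counted under this name is annotated as an antisense transcript on chromosome 17 (71557027 to 71598755) and overlaps Spdya, so its identity is uncertain. Zhx2, a zinc-finger and homeobox factor, had the same form at 77.7% retained, just inside the blunted class, and was the 1 member that passed edgeR's test for ACREB against control with PBS (-0.59, adjusted p = 0.048). Angptl2, a secreted angiopoietin-like protein, kept 81.4%, and its VIP levels of 88.3, 62.4 and 60.9 CPM became 43.6, 30.4 and 32.4 CPM. So a fold that was largely kept went, in these 3 genes, with a lower level in both states.

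Il1b, a cytokine gene, and Carmil2 were the 2 strongly raised genes not lower with ACREB at VIP. Il1b reached 3.38, 1.30 and 6.02 CPM with VIP in control virus and 3.65, 3.65 and 11.2 CPM with ACREB, from 0.831, 0.862 and 1.86 CPM and 0.818, 1.39 and 2.58 CPM with PBS. Every ACREB VIP library was above its own-numbered control library, though the groups overlapped. It kept 122%, with an interval of the interaction of -0.65 to 1.34. The summed markers of microglia, a cell type known for Il1b, had a higher but overlapping range with ACREB, as given above, and their part was not tested. Of the 12 spared genes, 5 (Carmil2, Epn3, S1pr5, Pcsk1 and 4933439N14Rik) had under 2 CPM in their highest group, and Gm26744, Il11 and Dgkk had 2.36 to 2.67 CPM. Without ACREB PBS library 1 the sign of Dgkk's interaction turned (-0.16), and without control PBS library 1 that of Il11 (0.25). Among the 66 strongly raised genes with at least 2 CPM, 59 were blunted, 7 spared and none enhanced.

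The 137 lowered genes were blunted too, from smaller effects. Their median effect was -0.56 on the log2 scale with control virus and -0.31 with ACREB, a median of 58.6% retained, with 116 blunted, 21 spared and none enhanced. The interaction was above 0 in 134 of 137 (51.3% of all genes), above 0 within all 3 numbers in 88 (15.3% of all genes) and at an unadjusted p under 0.05 in 28 by edgeR's test (1.29% of all genes). In edgeR's test 81 passed for VIP with control virus (0.537% of all genes as lower) and none with ACREB, where 273 of all genes tested (1.63%) were lower at an unadjusted p under 0.05. With PBS, 104 of 137 were lower with ACREB (47.8% of all genes tested), with a median of -0.11. With VIP, 109 of 137 were higher and 28 lower (50.2% of all genes as lower), with a median of 0.15. The medians thus differed between the viruses in both states. No lowered gene passed edgeR's test for either difference, against 0.0835% to 0.215% of all genes by state and direction. In 106 of the 137, every control VIP library lay below every control PBS library (5.27% of all genes), and in 63 this held with ACREB (3.26%). The choice of members used these VIP effects, so these counts and those that passed for VIP are descriptions. In 34, every ACREB VIP library lay above every control VIP library (6.97% of all genes), and in 5 every one lay below (7.06%). Number 2, which holds the library that stands apart, gave a median retained percent of 44.2%, against 66.8% and 59.8% in numbers 1 and 3. Without all number 2 libraries the count at an unadjusted p under 0.05 was 17 and the median retained 65.2%; with 1 library left out the count was 10 (without ACREB VIP library 3) to 47 (without control VIP library 3), and it was 10 with no replicate block.

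Gpr146, an orphan receptor known for roles in cholesterol metabolism (chromosome 5, 139377697 to 139396415), measured 68.3, 88.9 and 63.2 CPM with PBS and 31.2, 40.9 and 38.1 CPM with VIP in control virus. With ACREB it measured 59.4, 65.4 and 56.3 CPM and 41.4, 54.0 and 46.3 CPM, above every control VIP library. Its interaction was 0.63 (SE 0.15, 95% interval 0.31 to 0.96, adjusted p = 0.935 in edgeR's test), 36.2% retained. Lfng, a glycosyltransferase that modifies Notch, went from 163, 199 and 166 CPM to 73.1, 81.5 and 112 CPM with control virus and from 158, 164 and 168 CPM to 107, 127 and 140.1 CPM with ACREB. The PBS libraries overlapped, and within each number the ACREB VIP library was the higher. It kept 39.7% (interaction 0.61, 95% interval 0.22 to 1.00, adjusted p = 0.935 in edgeR's test). Of 27 Notch and Wnt genes tested, 3 were lowered members (0.817% of all genes tested) and none was raised. They were Lfng, Wnt7a, a Wnt ligand (44.8%), and Jag1, a Notch ligand (76.4%). All 3 were blunted, as were 116 of the whole set of 137 lowered genes.

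Cdc42ep4, an effector of Cdc42, kept 35.2% and went from 145, 179 and 132 CPM to 71.9, 85.1 and 95.6 CPM with control virus, and from 132, 135 and 136 CPM to 98.0, 112 and 118 CPM with ACREB. All 3 ACREB VIP libraries were thus above all 3 control VIP libraries. Espn, an actin bundler and one of the largest rises, kept 69.7%. Olig2, an oligodendrocyte lineage factor that cultured astrocytes can also express, kept 38.2% of its fall: 196, 298 and 180.3 CPM became 112, 149.9 and 118 CPM with control virus, and 171, 207 and 171 CPM became 129, 160.0 and 152 CPM with ACREB. Olig2 was the 1 member among 15 oligodendrocyte lineage markers tested, beside 0.817% of all genes tested that were lowered members.

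The lowest retained among the lowered genes were Pik3ip1 (20.1%), Tead4 (20.8%), Ccn2 (24.9%), Sh3rf2 (26.8%), Dlk2 (27.3%) and Lmcd1 (28.7%). Tead4 and Ccn2 are a factor and a target gene of the Hippo pathway. Ccn2 measured 480.0, 504 and 235 CPM with PBS and 278, 260.1 and 201 CPM with VIP in control virus, and 429.7, 408 and 246 CPM and 347, 359 and 245 CPM with ACREB. In number 3 it hardly changed with ACREB and fell little with control virus. At the other end, Gadd45b, a growth arrest gene (91.5%), Arsi (94.6%), Nppc, a natriuretic peptide (96.8%), Phf21b (107%) and Kit, a receptor kinase (120.1%), kept their fall. Their intervals all include 0, and for each of these 5 genes the sign of the interaction turned in at least 1 of the fits with a library left out.

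**Figure D5:**
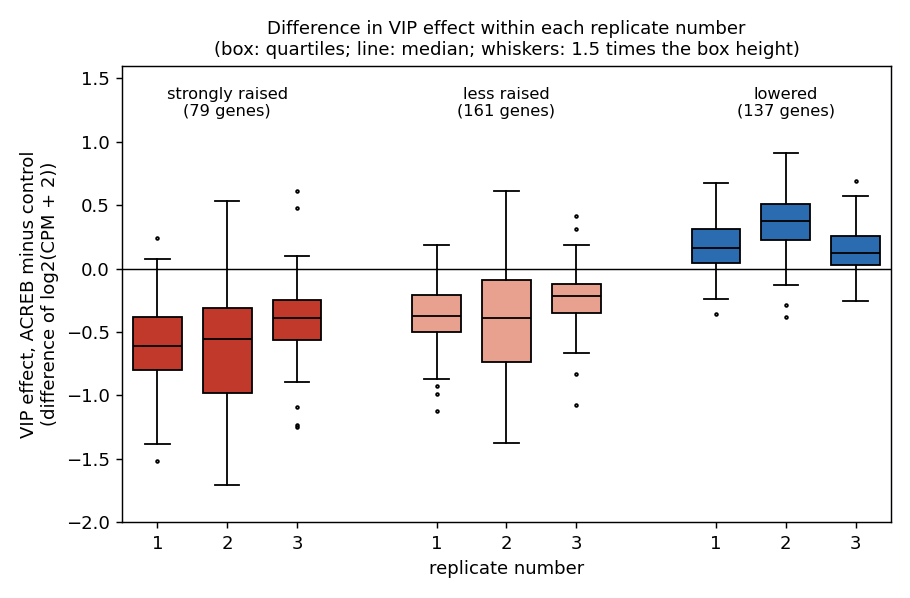
Difference in VIP effect between ACREB and control virus within each replicate number, as log2(CPM + 2), with boxes for the quartiles and lines for the medians of each set. The medians are below 0 in every number for the raised sets (-0.61, -0.55 and -0.39 for strongly raised genes) and above 0 for the lowered set (0.17, 0.37 and 0.12).

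At the bounds of the rule, Clasp2, Ago2 and Mxi1 were the last genes inside (adjusted p 0.0498 for each in edgeR's test, 34.4%, 61.8% and 80.8% retained) and Tmem104, Ntrk2 and Cxxc5 the first outside (adjusted p = 0.0503, 0.0513 and 0.0513, 69.3%, 51.1% and 43.4% retained). At the size bound of 1, Lama1 was inside (47.8% retained) and Npy1r outside (50.4%). At the bound of 80%, Ndnf (78.7%) was the last blunted and Gm26744 (80.6%) the first spared.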

How the data were processed

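RNA of 12 libraries was measured by strand-specific polyA sequencing. The values are whole-number counts per Ensembl gene, which the authors deposited in 1 table with no scaling or pooling. The submitters' processing notes name HTSeq 0.11.2, STAR 2.7.1a, Trimmomatic 0.39, edgeR and R 3.6.1, and the build GRCm38 (mm10). Which strand was counted, and with which gene models, is not given in the sources used here, so reads of genes that overlap on opposite strands cannot be told apart. Positions and overlaps come from the GENCODE annotation of GRCm38.

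Groups come from the sample titles. In R 4.3.3, edgeR 4.0.16 kept 16761 of 55573 genes (filterByExpr), scaled by TMM and fitted 1 quasi-likelihood model with group means and a block for the replicate numbers (6 residual degrees of freedom, common dispersion 0.0182). Contrasts were the mean VIP effect, the interaction, and VIP and virus effects, with Benjamini-Hochberg adjustment over all genes tested and a threshold of 0.05. SEs and 95% intervals come from the fitted weights. Same-numbered libraries deviated together in all 18 pairs (correlations 0.132 to 0.679 across genes), so the numbers were taken to pair the samples, and this pairing is the block. Differences within numbers use log2(CPM + 2).

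The genes named are the 25 largest mean rises and 12 largest falls with at least 2 CPM, the 6 lowest and highest retained percents and those closest to 100, members of the lists, and Creb1, Crem, Nr4a1, Nr4a2, Nr4a3, Sik1, Ppp1r3c and Gfap; predicted genes were left out. Genes at a bound of the rule or in small counts are also named. One gene and 1 gene list that these rules cover are not reported here. The members and the 20 gene and marker lists were chosen with earlier results of these data known. Further lists gave few members: CREB family (Crem raised, Crtc3 lowered), glucose and lactate (Slc2a3 raised, Pfkfb3 lowered), circadian clock (Rorb raised, Bhlhe40 lowered), trophic factors and cytokines (Fgf2 and Il1b raised, Pdgfb lowered) and GABA and glutamate (Gad1 raised). Of the marker lists, astrocytes gave Fgfr3, oligodendrocyte lineage Olig2, and fibroblasts and mural cells Pdgfrb, all lowered, and microglia, neurons, endothelium and ependyma none. Over all genes tested, 1.43% were raised and 0.817% lowered members. Scripts were tested on simulated data. Depth was 16571398 to 20529238 counts per library. Alternatives were no block, DESeq2 1.42.0 and its size factors, no filter, GC and length offsets, number 2 left out, each library left out, other class bounds, the CPM difference, members chosen with no block, a CPM minimum and, added after seeing the data, members with no overlap on the opposite strand.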

Additional observations from a re-analysis of the deposited data

How the results depend on the processing

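Under the alternatives, the strongly raised and lowered genes kept medians well under 100% retained, and no fit called a gene for the interaction. With no replicate block, edgeR called 97 raised and 25 lowered genes, 48 strongly raised, and 16 strongly raised and 10 lowered members had an unadjusted interaction p under 0.05 toward a smaller response. DESeq2 called 394 and 231, no filter on low counts 374 raised, and GC and length offsets 517 and 215; without number 2 the lowered members with such a p were 17, and on the CPM difference the strongly raised median was 43.6%. The smallest adjusted interaction p was 0.114 with the offsets and 0.222 in DESeq2. With 1 library left out, raised genes ranged from 115 (without ACREB PBS 1) to 334, lowered from 30 (without ACREB PBS 1) to 196, strongly raised members with such a p from 22 to 43 and lowered from 10 to 47, and the strongly raised median from 54.7% to 67.5%. More than 1.5-fold fewer raised genes were called without any 1 library of ACREB, control PBS 1 or control VIP 1, and fewer lowered genes without these or control VIP 2. Of 1728 comparisons of a named gene's interaction (96 genes, 18 settings), 1657 kept their sign and 71, in 21 genes, did not. DESeq2's size factors and DESeq2 gave Lss -0.00588 and -0.00558. The offsets gave Trmt61b 0.0793, Ankrd34a -0.00869, Pim3 -0.0488, Rgs4 0.0241, Bhlhe40 -0.0181, Arsi -0.135, Nppc -0.0399, Gadd45b -0.114 and Srf -0.0705. Without number 2, Ankrd34a was -0.107, Pim3 -0.0608, Rgs4 0.0696, Bhlhe40 -0.0962, Arsi -0.0990, Lss -0.0285, Gadd45b -0.0505, Srf -0.00412 and Pdgfrb -0.0325. With 1 library left out, the raised genes that crossed 0 ranged as follows: Angptl2 -0.520 to 0.00952, Dgkk -0.163 to 1.73, Gem -0.238 to 0.00197, Il11 -0.849 to 0.456, Ndnf -0.484 to 0.182, Pcsk1 -1.32 to 0.889, Rgs4 -0.201 to 0.0281, Trh -1.56 to 0.365 and Trmt61b -0.294 to 0.227. The lowered ones were Ankrd34a -0.0733 to 0.375, Arsi -0.0816 to 0.0989, Bhlhe40 -0.129 to 0.103, Fam184b -0.0406 to 0.515, Gadd45b -0.142 to 0.222, Kit -0.232 to 0.0191, Lss -0.0337 to 0.0669, Nppc -0.0842 to 0.124, Phf21b -0.160 to 0.0542, Pim3 -0.100 to 0.299 and Srf -0.00961 to 0.223. The cause was not tested. Genes under 2 CPM have intervals too wide to place them in a class at this depth.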
